A study of Mus musculus with 24 samples.

Results

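The response of C2C12 myotubes to dexamethasone was measured after 24 h and after 72 h, and the question here is how it changed between these times. C2C12 is an established, clonal mouse myoblast line that fuses into myotubes when serum is lowered. The comparison takes the difference between dexamethasone and vehicle at 72 h and subtracts the same difference at 24 h, which uses 16 of the 24 libraries, 4 in each of 4 groups. All 4 groups were wild-type C2C12 cells kept for 7 days in differentiation medium with 2% fetal bovine serum, after which the medium was switched. The dexamethasone 24 h and dexamethasone 72 h groups received 100 µM dexamethasone and were collected on day 8 and day 10. The vehicle 24 h and vehicle 72 h groups were kept for as long in medium with 1% ethanol. Ethanol is named in the labels for the vehicle alone, so an ethanol content of the dexamethasone medium is not given. The other 8 libraries, 4 of day 0 myoblasts in 10% serum and 4 of day 7 myotubes, entered the fit for the estimate of spread and serve as reference levels. Libraries were made from polyadenylated RNA with a stranded kit. Nothing in the labels says that replicates came from separate cultures. The p-values therefore measure only the spread between these samples, and that spread may be technical.

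Dexamethasone is a synthetic agonist of the glucocorticoid receptor, a nuclear receptor that enters the nucleus on binding its ligand and activates genes near its response elements. It also lowers many inflammatory and growth genes, partly by acting on other transcription factors. Its direct targets include inhibitors of its own pathway, such as Fkbp5 and Tsc22d3, and in muscle it raises the ubiquitin ligases Fbxo32 and Trim63, which is why it is used to model atrophy. Myotubes are post-mitotic, and cultures of C2C12 also keep unfused mononucleated cells, some of which stay quiescent as reserve cells.

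Values are given on 2 scales. Levels are in TPM, an abundance scaled by transcript length, and are listed for replicates 1 to 4 in that order or as mean ± SD (n = 4). A fold is the ratio of 2 mean TPM values and is left out where the smaller one is under 0.5 TPM. Differences with ± SE are log2 differences of the authors' normalised log2 table, in which differences between groups are shrunken: the slope of its changes of the response on those of log2 TPM was 0.67. Adjusted p-values are Benjamini-Hochberg values from limma over 16257 genes, with a threshold of 0.05. A positive change means that the difference between dexamethasone and vehicle was more positive at 72 h than at 24 h. Sequencing depth is unknown, and 12428 to 13030 genes per library reached 1 TPM.

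Replicate 1 of both 72 h groups stood apart from the other 72 h libraries. Over 18 genes near 0 in vehicle 72 h replicates 2 to 4 and high with dexamethasone, vehicle 72 h replicate 1 held a median of 12.8% of the dexamethasone level. For replicates 2 to 4, each measured over its own 19 to 33 genes chosen from the other two of the 3, the median was 0.0937% to 0.865%. Over 23 genes near 0 in dexamethasone 72 h replicates 2 to 4 and high with vehicle, dexamethasone 72 h replicate 1 held 19.5% of the vehicle level, and for replicates 2 to 4, over their own 29 to 46 genes, the median was 0.0854% to 5.0%. At 24 h dexamethasone replicate 3 held 60.8% over 9 such genes and replicate 1 17.4% over 3. The part of replicate 1 in the results was not tested, and results are therefore also given without replicate 1 of both 72 h groups where it changes a call or moves a value by over 1.5 times. Within dexamethasone 72 h, both replicates 1 and 3 lay above both replicates 2 and 4 in 700 of the 938 genes whose response became more negative, compared with 23.6% of all tested genes. Both lay below them in 55.4% of the 904 genes whose response became more positive, compared with 20.4% of all.

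The response changed in 1842 of 16257 genes (11.3%). It became more positive in 904 genes (5.56%), of which 372 changed by over 1 on the log2 scale, and more negative in 938 (5.77%), of which 305 did. Among the 904, the dexamethasone arm was called to rise from 24 h to 72 h, with no called fall in vehicle, in 822. In 15 the vehicle arm was called to fall, with no called rise in dexamethasone. Among the 938 the dexamethasone arm was called to fall, with no called rise in vehicle, in 808. In 53 the vehicle arm was called to rise, with no called fall in dexamethasone. A vehicle arm that moved the same way as the dexamethasone arm was not counted. Across all genes the dexamethasone arm differed between times in 4632 genes (28.5%) and the vehicle arm in 709 (4.36%). The 24 h response alone comprised 4134 genes (25.4%) and the 72 h response 4931 genes (30.3%), as the plot of the 72 h response against the 24 h response shows.

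**Figure D1:**
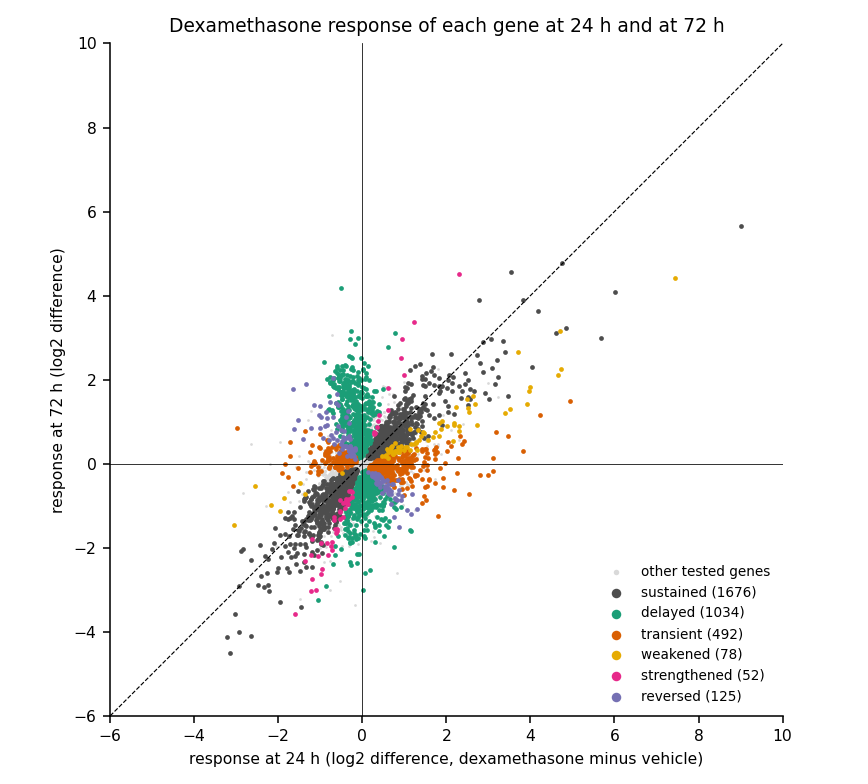
Log2 difference between dexamethasone and vehicle at 24 h (x axis) and at 72 h (y axis) for 16257 genes, coloured by response class, with the number of genes of each class in the legend. Sustained genes (1676) lie near the diagonal, transient genes (492) near the x axis, delayed genes (1034) near the y axis and reversed genes (125) in the upper left and lower right.

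Without replicate 1 of both 72 h groups, 2466 genes changed (15.2%), 1050 to a more positive (6.46%) and 1416 to a more negative response (8.71%), and 1730 of the 1842 were again called, all in the same direction. On log2(TPM + 0.1) the median change over all genes was −0.12, against −0.0048 in the log2 table, and relative to 0 the split was 599 more positive (3.93%) to 1057 more negative (6.93%), with 1656 of 15250 genes called (10.9%). The share of calls that were more positive was thus 49.1% in the log2 table and 36.2% on TPM.

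Genes were classed by which of the 3 tests they passed. A transient gene differed between dexamethasone and vehicle at 24 h and not at 72 h, and a delayed gene at 72 h and not at 24 h, with a change of the response called in both cases. Reversed genes differed in opposite directions at both times. Genes that differed in the same direction at both times were weakened or strengthened where the change was called, and sustained where it was not. There were 330 transient genes that rose at 24 h (2.03%) and 162 that fell (0.996%). Delayed genes numbered 619 that rose at 72 h (3.81%) and 415 that fell (2.55%). Reversed genes comprised 68 that fell at 24 h and rose at 72 h (0.418%) and 57 of the opposite order (0.351%). A response weakened in 70 genes that rose (0.431%) and 8 that fell (0.0492%), and strengthened in 13 that rose (0.08%) and 39 that fell (0.24%). Sustained genes were the most numerous, with 759 up (4.67%) and 917 down (5.64%). A response was called at 1 time with no call for the change in 1711 genes at 24 h (10.5%) and 1966 at 72 h (12.1%), and these were left without a class.

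In the delayed genes that rose, the dexamethasone arm rose between the times, with no called fall in vehicle, in 599 of 619. The median difference between dexamethasone and vehicle in this class was −0.12 at 24 h and 0.78 at 72 h. In transient genes that rose, the dexamethasone arm fell between the times, with no called rise in vehicle, in 255 of 330. The vehicle arm rose with no called fall in dexamethasone in 32, and the median difference went from 0.60 to −0.08. Sustained genes had medians at 24 h and 72 h of 0.46 and 0.46 for those that rose and −0.47 and −0.53 for those that fell. The medians of each class follow largely from the rule that defines it and are not a separate result.

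**Figure D2:**
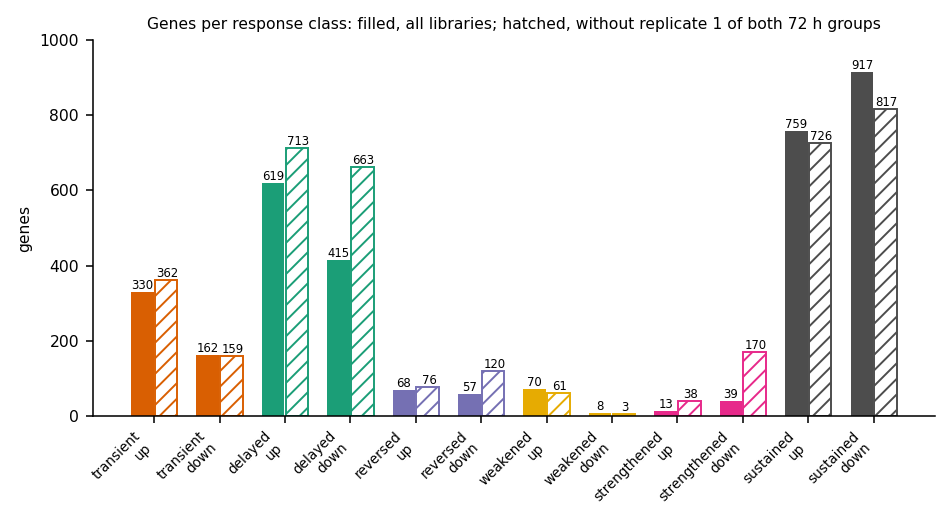
Number of genes (y axis) in each response class, split by direction, with all libraries (filled bars) and without replicate 1 of both 72 h groups (hatched bars). Strengthened genes that fell went from 39 to 170, reversed genes of the rise-then-fall order from 57 to 120 and delayed genes that fell from 415 to 663, while transient genes that rose stood at 330 and 362.

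Of the delayed genes that rose, 565 were in that class in both analyses, and of those that fell, 366. For transient genes these numbers were 264 up and 123 down. Deviations of same-numbered dexamethasone and vehicle libraries of a time correlated at 0.117 to 0.391. A fit with these pairs as blocks called 2446 genes (15.0%). That fit gave 742 transient (4.56%), 259 reversed (1.59%), 131 weakened (0.806%) and 83 strengthened genes (0.511%), each over 1.5 times the number without the block.

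Transient genes that rose at 24 h included a receptor, a channel and an acute phase protein. Scara5, a ferritin receptor, stood at 2.65, 5.7, 1.01 and 4.16 TPM in vehicle and 65, 149, 101 and 147 TPM in dexamethasone at 24 h, and 11, 8.73, 12.4 and 4.25 TPM in vehicle and 47.3, 2.43, 31.5 and 3.28 TPM in dexamethasone at 72 h. At 24 h every dexamethasone library lay above every vehicle library, whereas at 72 h replicates 1 and 3 with dexamethasone were high and replicates 2 and 4 lay below the vehicle libraries. The fold was 34.1 at 24 h and 2.32 at 72 h, 1.47 without replicate 1, and the response changed by −3.53 ± 0.69 (adjusted p = 0.00208). Kcnh1, a voltage-gated potassium channel, rose from 0.303 ± 0.108 TPM to 5.98 ± 2.11 TPM at 24 h and stood at 0.455 ± 0.105 TPM and 0.672 ± 0.535 TPM at 72 h, a change of −2.96 ± 0.43 (adjusted p = 0.000216). Saa3, an acute phase serum amyloid, rose from 0.238 ± 0.164 TPM to 10.6 ± 2.85 TPM at 24 h, against 0.496 ± 0.487 TPM and 1.44 ± 1.82 TPM at 72 h, a change of −2.80 (adjusted p = 0.00552). Gdpd2, a glycerophosphodiester phosphodiesterase, was 7.92-fold higher at 24 h. At 72 h Gdpd2 stood at 3.39, 7.53, 3.13 and 3.85 TPM in vehicle and 12.7, 0.2, 4.75 and 0.833 TPM in dexamethasone, which overlapped, and its response changed by −2.81 (adjusted p = 0.0156).

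Transient genes that fell at 24 h were led by membrane and secreted proteins. Timp1, a secreted inhibitor of matrix metalloproteinases, stood at 691, 1012, 988 and 851 TPM in vehicle and 188, 188, 238 and 139.8 TPM in dexamethasone at 24 h, and 716, 802, 558 and 984 TPM in vehicle and 820.3, 646, 702 and 545 TPM in dexamethasone at 72 h. The groups did not overlap at 24 h and overlapped at 72 h. Timp1 was 4.7-fold and then 1.13-fold lower with dexamethasone, a change of 1.45 ± 0.16 (adjusted p = 9.71e-06). Tm4sf1, a small membrane protein of the tetraspanin type, stood at 264, 155, 150.0 and 180.0 TPM in vehicle and 43.5, 25.8, 26.5 and 19.2 TPM in dexamethasone at 24 h, and 216, 180.4, 135 and 179.9 TPM in vehicle and 188, 272, 159 and 224 TPM in dexamethasone at 72 h. It was 6.51-fold lower with dexamethasone at 24 h, with no overlap, and at 72 h the 2 groups overlapped, a change of 1.90 ± 0.23 (adjusted p = 1.82e-05). Grem1, a secreted antagonist of bone morphogenetic proteins, was 6.5-fold lower at 24 h and 1.35-fold lower at 72 h, a change of 1.45 ± 0.35 (adjusted p = 0.00924). Cd53, a tetraspanin, was 8.07-fold lower at 24 h and its response changed by 1.68 (adjusted p = 0.0035).

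**Figure D3:**
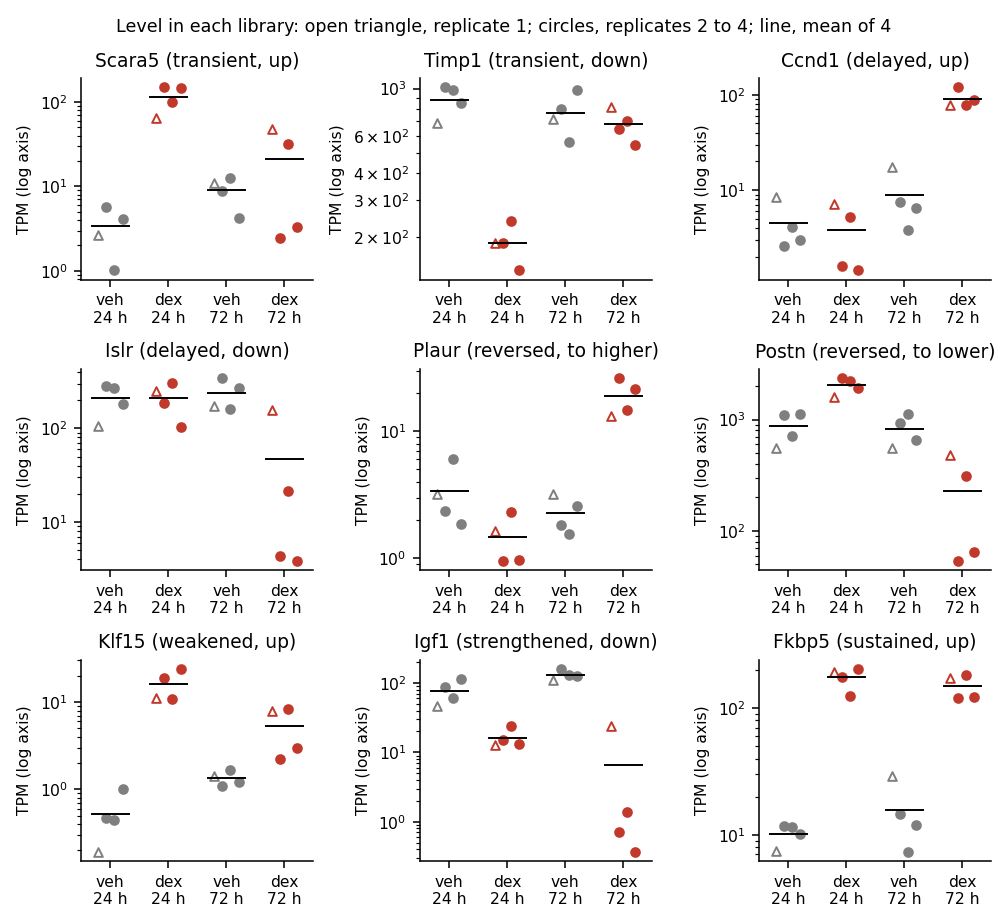
Level of 9 genes (y axis, TPM on a log scale) in each library of the 4 groups (x axis), with replicate 1 as an open triangle, replicates 2 to 4 as circles and the mean of 4 as a line. Ccnd1 stands at 78 to 119 TPM in dexamethasone 72 h and at 17.6 TPM or below in the other 3 groups, whereas Fkbp5 is high with dexamethasone at both times.

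The gene lists below and their members were chosen with earlier results of these data known. Their counts beside the shares of all genes are therefore descriptions. The genes of mitosis and cytokinesis changed together. All 30 of 30 tested members had a more positive response at 72 h than at 24 h, against 5.56% of all genes, with a median change of 2.20 against −0.0048 over all genes. None of the 30 differed between dexamethasone and vehicle at 24 h by limma (25.4% of all genes did), with 2 lower at an unadjusted p under 0.05, and all 30 rose at 72 h, where 15.2% of all genes did. Their median response was −0.47 at 24 h and 1.82 at 72 h. At 24 h their summed level was 201.9, 44.89, 164.1 and 46.2 TPM in vehicle. With dexamethasone it was 61.89, 44.5, 77.11 and 65.26 TPM. All 30 rose in the dexamethasone arm from 24 h to 72 h, and none was called in the vehicle arm (1 lower at an unadjusted p under 0.05). The same 30 of 30 were called without replicate 1 and on TPM. Mki67, a nuclear protein of cycling cells, stood at 2.16, 0.308, 1.08 and 0.228 TPM in vehicle and 0.48, 0.2, 0.59 and 0.344 TPM in dexamethasone at 24 h, and 1.65, 1.04, 0.0688 and 0.996 TPM in vehicle and 7.29, 13.7, 3.03 and 4.88 TPM in dexamethasone at 72 h. The dexamethasone 72 h libraries all lay above the 12 others, with the highest level in replicate 2, and the response changed by 2.62 ± 0.62 (adjusted p = 0.00763). Cdk1, the kinase that drives entry into mitosis, stood at 32.1, 10.1, 27.6 and 12.9 TPM in vehicle and 18.2, 12.5, 15.5 and 14.5 TPM in dexamethasone at 24 h, and 23.2, 15.5, 8.58 and 15.6 TPM in vehicle and 78, 138, 39.5 and 66 TPM in dexamethasone at 72 h. Again the dexamethasone 72 h libraries did not overlap the rest, the fold was 5.12 and the change was 1.78 ± 0.36 (adjusted p = 0.00246). The kinetochore genes Ndc80 and Nuf2 changed by 2.70 (adjusted p = 0.00369) and 2.67 (adjusted p = 0.00407), with folds of 7.04 and 7.5 at 72 h. Bub1, a spindle checkpoint kinase, changed by 2.63 (adjusted p = 0.00434) and was 8.14-fold higher at 72 h. Cdk1 was named after its values were seen.

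The mitosis genes stood below their day 0 level in all 4 groups. The median over the 30 genes was 16.6% of day 0 in dexamethasone 72 h (11.9% to 23.1% across genes), against 1.73% in dexamethasone 24 h, 3.2% in vehicle 24 h, 2.51% in vehicle 72 h and 11.4% on day 7. In the cycling cell markers Mki67, Top2a, Ccnb1, Cdk1 and Mcm5, all 5 of 5 were called more positive (5.56% of all genes). Mki67, Cdk1 and Mcm5 also belong to the mitosis or DNA replication lists, so these calls are not separate from those of the lists. The summed level of the 5 markers was 81.26 to 291.7 TPM in dexamethasone 72 h, 10.24 to 39.74 TPM in vehicle 72 h and 771.5 to 850.3 TPM on day 0. In bulk libraries a different number of cycling cells and a different amount of RNA per cell cannot be told apart.

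Members of 2 cell cycle lists are known to be controlled through short promoter sequences, so the promoters of 4 members are shown, each the 250 bases before the annotated start, 5′ to 3′ on the gene's strand (RefSeq, GRCm38.p6). For the mitosis genes Mki67 (chr7:135716380-135716629, minus strand) and Cdk1 (chr10:69352913-69353162, minus strand), capitals mark the CCAAT box CCAAT and the cell cycle homology region TTTGAA, on either strand.
Mki67: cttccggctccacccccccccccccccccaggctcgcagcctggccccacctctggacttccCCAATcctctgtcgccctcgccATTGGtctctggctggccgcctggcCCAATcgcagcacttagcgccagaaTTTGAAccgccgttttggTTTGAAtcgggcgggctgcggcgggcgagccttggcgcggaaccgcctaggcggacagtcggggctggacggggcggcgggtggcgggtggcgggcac
Cdk1: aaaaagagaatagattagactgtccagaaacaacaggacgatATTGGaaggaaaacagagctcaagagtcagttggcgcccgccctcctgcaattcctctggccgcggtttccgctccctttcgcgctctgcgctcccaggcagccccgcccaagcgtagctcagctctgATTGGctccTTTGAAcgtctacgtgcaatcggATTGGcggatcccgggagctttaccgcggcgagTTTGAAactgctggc
For the replication genes Cdc6 (chr11:98907901-98908150, plus strand) and Mcm5 (chr8:75109259-75109508, plus strand), capitals mark the E2F sites TTTCCCGC or TTTGGCGC on either strand and, in Mcm5, also CCAAT.
Cdc6: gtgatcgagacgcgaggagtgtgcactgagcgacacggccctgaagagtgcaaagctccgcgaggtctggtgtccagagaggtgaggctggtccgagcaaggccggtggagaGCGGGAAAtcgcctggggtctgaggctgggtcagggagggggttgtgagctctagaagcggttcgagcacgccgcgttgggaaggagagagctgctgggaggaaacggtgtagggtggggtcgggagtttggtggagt
Mcm5: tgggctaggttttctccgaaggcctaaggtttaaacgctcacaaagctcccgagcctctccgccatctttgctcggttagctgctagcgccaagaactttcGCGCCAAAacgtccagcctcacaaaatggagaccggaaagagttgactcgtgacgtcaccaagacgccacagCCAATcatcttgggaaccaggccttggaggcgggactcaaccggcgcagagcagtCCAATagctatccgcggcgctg
Mki67 and Cdk1 each held 3 CCAAT boxes and 2 copies of TTTGAA, and no E2F site of these letters. Cdc6 and Mcm5 each held 1 E2F site, 138 and 149 bases before the start, and no TTTGAA.

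Over windows from 250 bases before to 50 bases after the start, TTTGAA was in the promoters of 19 of 25 mitosis genes with a RefSeq window (76.0%) and 14.5% of 11454 tested genes with one. An E2F site was in 10 of 28 DNA replication promoters (35.7%), in 0 of 25 mitosis promoters and in 3.23% of all. The CCAAT box was in 76.0% of mitosis promoters, 60.7% of DNA replication promoters and 42.7% of all. Among delayed genes that rose and were in none of the 3 cell cycle lists, 25.1% held TTTGAA and 7.26% an E2F site, over 427 genes. Transient genes that rose held TTTGAA in 13.0% and an E2F site in 0.42%. For transient genes that fell these shares were 15.6% and 7.03%, over 128 genes. For reversed genes that fell and then rose they were 17.0% and 5.66%, over 53 genes. A match of these letters is a description of the window and not a site of binding.

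DNA replication genes followed the same order. Of 34 tested members, 30 were called more positive (5.56% of all genes), none more negative, and the median change was 1.21. At 24 h 2 were higher (13.2% of all genes) and 2 lower (12.2%), and at 72 h 32 were higher (15.2%). Mcm5, a subunit of the replicative helicase, stood at 2.73, 1.04, 4 and 0.907 TPM in vehicle and 1.16, 0.698, 2.15 and 1.08 TPM in dexamethasone at 24 h, and 3.2, 2.11, 0.491 and 2.43 TPM in vehicle and 18.7, 30.3, 11.9 and 22.4 TPM in dexamethasone at 72 h. Dexamethasone 72 h libraries were all above the rest, 10.1-fold over vehicle, and the response changed by 2.76 ± 0.46 (adjusted p = 0.000657). Cdc6, a factor that loads the helicase, stood at 5.17, 7.14, 2.88 and 5.8 TPM in dexamethasone 72 h against 0.453 ± 0.349 TPM in vehicle 72 h, a change of 2.80 ± 0.51 (adjusted p = 0.00122). Mcm10 changed by 2.29 (adjusted p = 0.000178), and Tk1, a thymidine kinase, by 2.21 (adjusted p = 0.0149). Tyms, the thymidylate synthase, fell 2.4-fold at 24 h and rose 2.58-fold at 72 h, the only reversed member of the list. The median over the list was 37.5% of day 0 in dexamethasone 72 h and 10.3% in dexamethasone 24 h. Pclaf, a partner of the replication clamp, and Exo1, an exonuclease of DNA repair, were among the delayed genes of largest change, with 3.34 ± 0.63 (adjusted p = 0.00168) and 3.10 ± 0.50 (adjusted p = 0.000498). Pclaf stood at 3.28, 2.54, 0.332 and 2.7 TPM in vehicle and 29, 55.5, 8.57 and 26.1 TPM in dexamethasone at 72 h, with no overlap. Tyms was named after its values were seen.

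Of 17 tested genes in a list of G1 cyclins, their kinases, E2F factors and other growth genes, 11 were called more positive (5.56% of all genes) and none more negative (8 and none on TPM). The 11 included the chromatin architectural genes Hmga1 and Hmga2. Ccnd1, cyclin D1, which couples growth signals to the cell cycle, stood at 8.58, 2.61, 4.08 and 2.98 TPM in vehicle and 7.09, 1.63, 5.3 and 1.45 TPM in dexamethasone at 24 h, and 17.6, 7.45, 3.79 and 6.52 TPM in vehicle and 78.8, 119, 78 and 88 TPM in dexamethasone at 72 h. Its dexamethasone 72 h libraries lay far above all others. It was 10.3-fold higher than vehicle at 72 h (16.1-fold without replicate 1), and 23.5-fold higher than dexamethasone at 24 h, a change of 2.77 ± 0.48 (adjusted p = 0.00091). E2f7, an E2F factor of S phase, changed by 2.68 (adjusted p = 0.00192). Hmga1 was called at 72 h only and changed by 2.07 ± 0.25 (adjusted p = 2.12e-05), whereas Hmga2 was higher at both times and strengthened. Hmga2 stood at 10.7, 6.99, 2.72 and 6.82 TPM in vehicle and 25.2, 28.1, 15.6 and 37.8 TPM in dexamethasone at 24 h, and 17.8, 3.52, 7.09 and 3.19 TPM in vehicle and 88.5, 198, 232 and 227 TPM in dexamethasone at 72 h, so that the groups did not overlap at either time. Its fold went from 3.91 to 23.6, or 47.6 without replicate 1, a change of 2.12 ± 0.42 (adjusted p = 0.00221).

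Among 8 tested inhibitors of cyclin-dependent kinases and retinoblastoma family genes, 3 were called more negative (5.77% of all genes) and 1 more positive. Cdkn1b and Cdkn1c, which encode the inhibitors p27 and p57, and Rbl2, a retinoblastoma relative of quiescent cells, were transient genes that rose at 24 h. Their changes were −0.43 (adjusted p = 0.00801), −0.87 (adjusted p = 0.0277) and −0.53 (adjusted p = 0.00521). Rbl1, the relative that E2F factors induce in cycling cells, changed by 1.22 ± 0.22 (adjusted p = 0.00106).

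**Figure D4:**
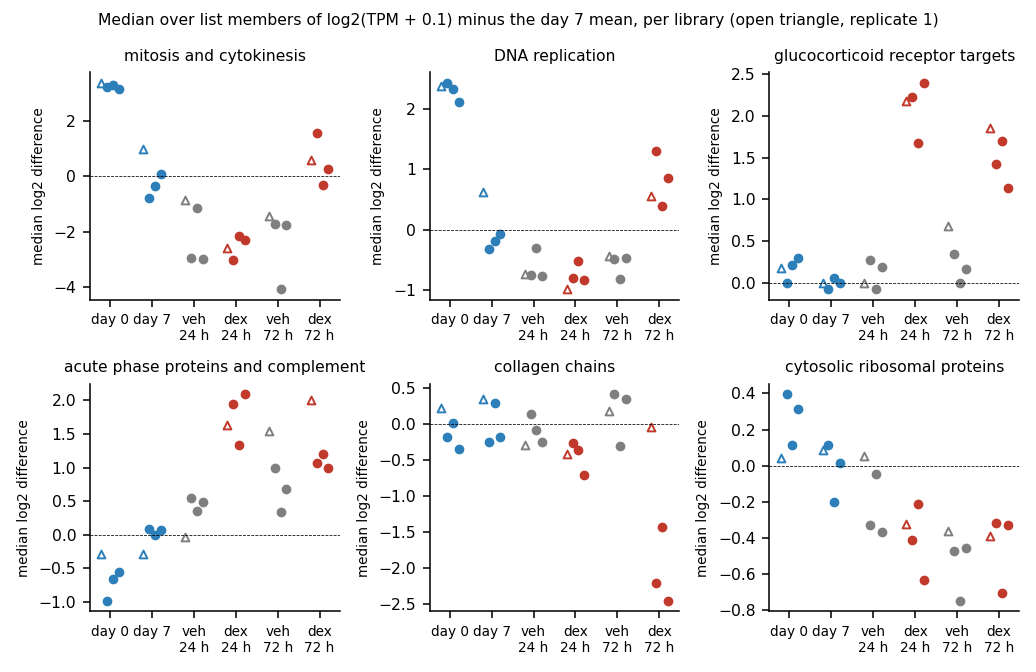
Median over the members of 6 gene lists of log2(TPM + 0.1) relative to the day 7 mean (y axis, log2) in each library of all 6 groups (x axis), with replicate 1 as an open triangle. Mitosis and DNA replication genes are above vehicle in dexamethasone 72 h and not in dexamethasone 24 h, glucocorticoid receptor targets are high with dexamethasone at both times, and replicates 1 and 3 of dexamethasone 72 h lie above replicates 2 and 4 for acute phase genes and collagens.

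Genes of the immediate early response and of feedback on ERK signalling moved the same way in part. Of 23 tested, 10 were more positive (5.56% of all genes; 8 on TPM) and none more negative. The median change was 0.28. At 24 h 4 were higher (13.2% of all genes) and 5 lower (12.2%) with dexamethasone, and at 72 h 11 were higher and 4 lower (15.2% each). Fosl1, an AP-1 subunit, stood at 2.06, 4.41, 3.79 and 2.65 TPM in vehicle and 3.02, 4.66, 3.17 and 3.11 TPM in dexamethasone at 24 h, and 5.34, 3.56, 2.03 and 2.5 TPM in vehicle and 23.2, 35.2, 32.5 and 27.8 TPM in dexamethasone at 72 h. Only the dexamethasone 72 h group stood apart, 8.84-fold over vehicle, and the response changed by 2.19 ± 0.22 (adjusted p = 6.79e-06). Etv4, an ETS factor induced by ERK signalling, stood at 7.25, 6.96, 7.37 and 6.25 TPM in vehicle and 1.91, 2.87, 3.96 and 3.14 TPM in dexamethasone at 24 h, and 6.71, 5.02, 6.2 and 7.5 TPM in vehicle and 11.3, 26.9, 18.6 and 21.4 TPM in dexamethasone at 72 h. It was 2.34-fold lower at 24 h and 3.07-fold higher at 72 h, without overlap at either time, a change of 1.92 ± 0.22 (adjusted p = 1.31e-05). Dusp6 and Dusp5, phosphatases that act on ERK, changed by 1.40 ± 0.20 (adjusted p = 0.00018) and 1.21 ± 0.14 (adjusted p = 1.69e-05), and Dusp5 was reversed.

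Among all genes the reversed ones that fell first and then rose included Acsbg1, Plaur and Slpi. Acsbg1, an acyl-CoA synthetase, stood at 1.44, 2.05, 2.43 and 1.26 TPM in vehicle and 0.114, 0.314, 0.515 and 0.138 TPM in dexamethasone at 24 h, and 0.846, 0.824, 0.394 and 0.946 TPM in vehicle and 1.82, 10.2, 3.43 and 6.32 TPM in dexamethasone at 72 h, lower with dexamethasone than in any vehicle library at 24 h and higher at 72 h. Its change was 3.43 ± 0.37 (adjusted p = 9.71e-06), and it was 7.21-fold higher at 72 h. Plaur, the urokinase receptor, stood at 3.19, 2.35, 6.08 and 1.85 TPM in vehicle and 1.65, 0.946, 2.32 and 0.974 TPM in dexamethasone at 24 h, and 3.21, 1.81, 1.55 and 2.57 TPM in vehicle and 13.1, 26.1, 14.7 and 21.5 TPM in dexamethasone at 72 h. It was 2.29-fold lower at 24 h, where 1 dexamethasone library lay within the vehicle range, and 8.24-fold higher without overlap at 72 h, a change of 2.74 ± 0.29 (adjusted p = 9.71e-06). Slpi, a secreted protease inhibitor, was 3.46-fold lower at 24 h and 4.5-fold higher at 72 h, a change of 2.52 ± 0.42 (adjusted p = 0.000571).

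Delayed genes of largest rise also included secreted and cytoskeletal proteins. Serpinb2, a plasminogen activator inhibitor, stood at 3.48, 0.0956, 0.0396 and 0.0873 TPM in vehicle and 31.8, 23.5, 6.94 and 12.9 TPM in dexamethasone at 72 h, and its response changed by 4.67 ± 0.73 (adjusted p = 0.000359). At 24 h its means were 0.145 ± 0.121 TPM and 0.0408 ± 0.0232 TPM. Nefl, the light neurofilament, stood at 0.297 ± 0.251 TPM in vehicle and 5.93 ± 2.86 TPM in dexamethasone at 72 h, a change of 3.05 (adjusted p = 0.00103). The proliferins Prl2c2 and Prl2c3, hormones of the prolactin family, changed by 3.27 (adjusted p = 0.00221) and 2.88 (adjusted p = 0.0148). They are near-identical copies whose reads may be split by the authors' counting, so the values of each are uncertain.

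Genes that fell late were mostly secreted matrix proteins among the 6 of largest change. Cilp, a cartilage matrix protein, stood at 55.3, 356, 109 and 227 TPM in vehicle and 39.8, 290.4, 218 and 254 TPM in dexamethasone at 24 h, and 94.8, 322, 204 and 184 TPM in vehicle and 20.9, 2.81, 15.6 and 2.29 TPM in dexamethasone at 72 h. The groups overlapped at 24 h, and at 72 h every dexamethasone library lay below every vehicle library, with replicates 2 and 4 lowest. The fold at 72 h was 19.3, 34.3 without replicate 1, and the change was −3.00 ± 0.72 (adjusted p = 0.00871). Omd, the matrix proteoglycan osteomodulin, changed by −2.73 ± 0.67 (adjusted p = 0.00945) and was 3.97-fold lower at 72 h. Dexamethasone 72 h replicate 1 was the highest of its group for Omd (13.6 TPM), and a fold without it is not given. Chrdl1, another antagonist of bone morphogenetic proteins, was 10.7-fold lower at 72 h, 26.4-fold without replicate 1, and changed by −2.72 ± 0.52 (adjusted p = 0.00183). Fbln7, a fibulin, and Adamts12, a secreted metalloprotease, were 8.82-fold and 7.9-fold lower, or 30.8-fold and 25.6-fold without replicate 1. Their changes were −2.64 (adjusted p = 0.0024) and −2.23 (adjusted p = 0.00393). Islr, a secreted leucine-rich repeat protein, stood at 250.3, 187, 306 and 103 TPM in dexamethasone 24 h and 158, 4.39, 21.7 and 3.82 TPM in dexamethasone 72 h, against 174, 343, 161 and 272 TPM in vehicle 72 h. Replicate 1 with dexamethasone lay close to the lowest vehicle library and replicates 2 and 4 far below. The change was −2.08 ± 0.57 (adjusted p = 0.0196), with an adjusted p of 0.0606 under the block of same-numbered libraries, and the fold went from 5.07 to 26 without replicate 1.

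The collagen chains had a median change of −0.91 over 19 tested members, with 5 more negative (5.77% of all genes) and 1 more positive, Col18a1. The 5 were Col6a1, Col11a1, Col12a1, Col3a1 and Col5a2, of which the last 2 and Col18a1 were named after their values were seen. Without replicate 1 of both 72 h groups 12 were more negative. At 24 h 5 were lower (12.2% of all genes) and 2 higher (13.2%), and at 72 h 12 were lower and 2 higher (15.2% each). Col6a1, a chain of the pericellular collagen VI, stood at 161, 289.8, 278 and 214 TPM in vehicle and 236, 326, 351 and 205 TPM in dexamethasone at 24 h, and 264, 323, 188 and 301 TPM in vehicle and 242, 17.7, 54.1 and 12.4 TPM in dexamethasone at 72 h. At 24 h the groups overlapped. At 72 h replicates 2 to 4 with dexamethasone lay below every vehicle library, whereas replicate 1 lay among them. The fold was 3.29, or 9.63 without replicate 1, and the change was −1.70 ± 0.46 (adjusted p = 0.0192). Col11a1 and Col12a1, chains of a fibril-forming and a fibril-associated collagen, changed by −2.10 (adjusted p = 0.0238) and −1.67 (adjusted p = 0.0189), the latter with an adjusted p of 0.055 under the block. Col14a1 missed the threshold with a change of −1.62 (adjusted p = 0.0619) and passed it under the block (adjusted p = 0.0206). Col1a1, the main chain of collagen I, stood at 281, 256, 294 and 182 TPM in vehicle and 169, 90.2, 112 and 62.8 TPM in dexamethasone at 24 h, and 267, 262, 113 and 272 TPM in vehicle and 109, 6.93, 14.6 and 5.95 TPM in dexamethasone at 72 h. It was 2.33-fold lower at 24 h and 6.68-fold lower at 72 h, a change of −1.17 ± 0.48 (adjusted p = 0.119). Without replicate 1 of both 72 h groups the fold at 72 h was 23.6 and the change passed the threshold (adjusted p = 0.0023).

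Of 29 matrix glycoproteins and crosslinking enzymes, 8 were more negative (5.77% of all genes; 13 without replicate 1) and 3 more positive, with a median change of −0.49. The 3, Spp1, Loxl3 and Nid1, were named after their values were seen. Under the block 4 were more negative. Postn, periostin, a matricellular protein of remodelling tissue, stood at 559.7, 1090.0, 711 and 1113 TPM in vehicle and 1609, 2357, 2210.0 and 1938 TPM in dexamethasone at 24 h, and 554, 933, 1115 and 663 TPM in vehicle and 485, 53.4, 313 and 65 TPM in dexamethasone at 72 h. It was 2.34-fold higher at 24 h and 3.56-fold lower at 72 h (6.28-fold without replicate 1), with no overlap at either time, a change of −2.38 ± 0.41 (adjusted p = 0.000856). Thbs2, a thrombospondin, was reversed the same way, 2.39-fold higher and then 2.04-fold lower, a change of −1.58 ± 0.37 (adjusted p = 0.00689). Under the block, the Thbs2 responses at 24 h and at 72 h missed the threshold, as did the 24 h response of Postn. Nid2, a basement membrane linker, was delayed and 4.25-fold lower at 72 h (8.94-fold without replicate 1), a change of −1.62 ± 0.36 (adjusted p = 0.00521). Lum, the proteoglycan lumican, had a change of −1.75 (adjusted p = 0.158). Other genes that rose and then fell were Pappa2, a protease of IGF-binding proteins, Abat, which degrades GABA, and Col27a1, a fibrillar collagen. Their changes were −2.38 (adjusted p = 0.00879), −2.36 (adjusted p = 0.00431) and −2.16 (adjusted p = 0.0131). The 24 h response of Col27a1 missed the threshold under the block.

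Among 21 matrix proteases and inhibitors, 6 were more negative (5.77% of all genes) and 3 more positive (5.56%), with a median change of −0.57. At 72 h 13 of the 21 were lower with dexamethasone, where 15.2% of all genes were, and at 24 h 7 were (12.2%). Mmp2, the gelatinase A, stood at 337, 909.6, 658 and 968 TPM in vehicle and 496, 1369, 765 and 1504 TPM in dexamethasone at 24 h, and 622, 1005, 848 and 927 TPM in vehicle and 364, 93.5, 374 and 104 TPM in dexamethasone at 72 h. The groups overlapped at 24 h, and at 72 h all dexamethasone libraries were below all vehicle libraries, 3.63-fold, a change of −1.68 ± 0.42 (adjusted p = 0.0118). The more positive members included Plaur and Timp1, whose values are given above.

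Of 24 genes of myostatin, activin and TGF-beta signalling, 8 were more negative (5.77% of all genes) and none more positive, and 23 of the 24 changes were below 0, with a median of −0.25. At 72 h 14 were lower and 3 higher (15.2% of all genes each). Inhbb, the beta B subunit of activins, stood at 68.4, 180.1, 116 and 141 TPM in vehicle and 188, 245, 183 and 252 TPM in dexamethasone at 24 h, and 88.8, 186, 160.3 and 152 TPM in vehicle and 73, 20.6, 58.3 and 20.0 TPM in dexamethasone at 72 h. At 24 h all its dexamethasone libraries lay above vehicle (1.72-fold), a response that was not called (adjusted p = 0.0939). At 72 h all lay below (3.41-fold), and the change was −1.83 ± 0.33 (adjusted p = 0.00125). Fst, follistatin, which binds activins and myostatin, stood at 109, 168, 152 and 135 TPM in vehicle and 234, 272, 401 and 199.6 TPM in dexamethasone at 24 h, and 159, 222, 120.0 and 191 TPM in vehicle and 145, 76.6, 70.0 and 58.2 TPM in dexamethasone at 72 h. Its dexamethasone libraries were all above vehicle at 24 h (1.96-fold), while at 72 h replicate 1 lay within the vehicle range and replicates 2 to 4 below it (1.98-fold), a change of −1.31 ± 0.25 (adjusted p = 0.00168). Tgfbr3, the coreceptor betaglycan, was transient, 4.33-fold higher at 24 h and 1.12-fold at 72 h, a change of −1.43 ± 0.28 (adjusted p = 0.00221). Smad6, an inhibitory Smad, changed by −1.12 (adjusted p = 0.00387).

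Insulin and IGF signalling had 5 of 27 members more negative (5.77% of all genes), Igf1, Grb14, Pik3r1, Ddit4 and Sesn1, and none more positive. Pik3r1, Ddit4 and Sesn1, named after their values were seen, also belong to the list of receptor targets. Igf1, the growth factor that promotes muscle growth, stood at 45.9, 88.7, 60.5 and 114 TPM in vehicle and 12.9, 14.8, 24.2 and 13.3 TPM in dexamethasone at 24 h, and 109.8, 159, 132 and 127 TPM in vehicle and 24.2, 0.716, 1.4 and 0.365 TPM in dexamethasone at 72 h. It was lower with dexamethasone at both times without overlap, 4.73-fold at 24 h and 19.8-fold at 72 h. Without replicate 1 the 72 h fold was 169. Replicate 1 was the highest dexamethasone library, and the change was −1.97 ± 0.54 (adjusted p = 0.0196). Grb14, an adaptor that inhibits the insulin receptor, changed by −1.27 (adjusted p = 0.0223), with an adjusted p of 0.0735 under the block. Igfbp3 and Igfbp4, binding proteins of IGF, had changes of −1.47 (adjusted p = 0.0874) and −1.44 (adjusted p = 0.134) that missed the threshold and passed it without replicate 1 of both 72 h groups (adjusted p = 0.0381 and 0.00178), and under the block the adjusted p was 0.0321 for Igfbp3.

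Igf1 was 1 of 39 responses that fell at 24 h and strengthened by 72 h. Nrep, a neuronal regeneration protein, was 2.75-fold lower at 24 h and 13.2-fold at 72 h (93.6-fold without replicate 1), a change of −1.91 ± 0.46 (adjusted p = 0.00924). Lgr5, the R-spondin receptor, was 3.17-fold and 22.7-fold lower, a change of −1.81 ± 0.47 (adjusted p = 0.0139). Sfrp2, a secreted antagonist of Wnt, was 2.51-fold and 12.9-fold lower (42.4-fold without replicate 1), a change of −1.63 ± 0.47 (adjusted p = 0.0249). Among the 13 that rose and strengthened beside Hmga2, Slco4a1, an organic anion transporter, stood at 0.698 ± 0.44 TPM and 7.43 ± 4.08 TPM with dexamethasone and at 0.101 TPM or below on average with vehicle, a change of 2.22 (adjusted p = 0.0335). Dhrs9, a retinol dehydrogenase, changed by 2.03 (adjusted p = 0.00351). Map3k6, a kinase of stress signalling, was 2.01-fold and 3.57-fold higher, a change of 0.66 (adjusted p = 0.033). Under the block the adjusted p was 0.07 for Slco4a1 and 0.0801 for Map3k6, and on TPM 0.114 for Map3k6.

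Most glucocorticoid receptor targets were higher with dexamethasone at each time, and in 11 of 29 the response became more negative. Of the 29 tested, 24 were higher at 24 h (13.2% of all genes) and none lower. At 72 h 19 were higher and 3 lower (15.2% each). Those 11 (5.77% of all genes; 16 under the block) stood beside 1 that was more positive, and 25 of the 29 changes were below 0, with a median of −0.51. By class, 11 were sustained, 6 weakened, 4 transient, 1 delayed and 1 reversed. In the dexamethasone arm 15 fell from 24 h to 72 h. In the vehicle arm none was called, with 5 higher and 2 lower at an unadjusted p under 0.05. Their median level, over 25 genes with at least 0.5 TPM on day 0, was 337% of day 0 in dexamethasone 24 h and 254% in dexamethasone 72 h, against 94.3% and 106% with vehicle.

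Klf15, a transcription factor that glucocorticoids induce and that controls amino acid breakdown, stood at 0.192, 0.472, 0.449 and 1 TPM in vehicle and 11, 18.7, 10.7 and 23.9 TPM in dexamethasone at 24 h, and 1.44, 1.1, 1.65 and 1.23 TPM in vehicle and 7.82, 2.25, 8.36 and 2.95 TPM in dexamethasone at 72 h. Dexamethasone libraries were above all vehicle libraries at both times. The fold went from 30.5 to 3.94, a change of −2.22 ± 0.42 (adjusted p = 0.00183). Pdk4, which inhibits pyruvate dehydrogenase, stood at 13.8, 19.9, 22.7 and 21.8 TPM in vehicle and 280.2, 240.0, 166 and 362 TPM in dexamethasone at 24 h, and 40.3, 24.7, 25.9 and 24.3 TPM in vehicle and 145, 77.5, 109.9 and 70.0 TPM in dexamethasone at 72 h. Its fold fell from 13.4 to 3.49 without overlap at either time, a change of −1.31 ± 0.23 (adjusted p = 0.000986). Sgk1, a kinase that glucocorticoids induce in many tissues, stood at 31.8, 61.7, 35.9 and 48.1 TPM in vehicle and 236, 342, 216 and 354 TPM in dexamethasone at 24 h, and 55.9, 65.9, 75.7 and 51.9 TPM in vehicle and 148, 136, 246 and 126 TPM in dexamethasone at 72 h. Its fold went from 6.47 to 2.63 and its response changed by −0.87 ± 0.19 (adjusted p = 0.00453). Rgs2, which limits signalling by G proteins, had folds of 46 and 5.54 and a change of −2.23 ± 0.66 (adjusted p = 0.0293). Cebpd, a C/EBP factor, was transient, with folds of 4.56 and 1.34 and a change of −1.35 (adjusted p = 0.0115). Angptl4, an inhibitor of lipoprotein lipase, was the member with a more positive response, 1.40 (adjusted p = 0.0468), and missed the threshold on TPM (adjusted p = 0.0879). Pdk4 and Sgk1 were named after their values were seen.

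Sgk1 was the only gene among 11454 with a RefSeq promoter window that held the full palindromic glucocorticoid response element, AGAACA and its reverse complement with 3 bases of any kind between them. Its element lies 189 bases before the start in the 250 bases shown (chr10:21993640-21993889, plus strand, GRCm38.p6), where capitals mark it.
Sgk1: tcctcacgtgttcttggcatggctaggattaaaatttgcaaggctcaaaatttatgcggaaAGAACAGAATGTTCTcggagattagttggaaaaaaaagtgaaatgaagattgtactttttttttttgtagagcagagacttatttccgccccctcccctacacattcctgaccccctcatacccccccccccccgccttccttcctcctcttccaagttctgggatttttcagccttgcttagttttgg
Of 27 receptor targets with a window, 1 held this element (3.7%), and elements farther from the start were not searched.

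Other receptor targets were sustained. Fkbp5, a cochaperone that lowers the receptor's affinity for its ligand, stood at 7.49, 11.7, 11.6 and 10.0 TPM in vehicle and 194, 176, 126 and 204 TPM in dexamethasone at 24 h, and 29.2, 14.5, 7.3 and 11.9 TPM in vehicle and 172, 119, 181 and 122 TPM in dexamethasone at 72 h. It was 17.1-fold and 9.46-fold higher without overlap, and the change was −0.41 ± 0.25 (adjusted p = 0.316). Tsc22d3, also called Gilz, was 12.2-fold and 6.68-fold higher. Its change of −0.51 ± 0.18 (adjusted p = 0.0622) missed the threshold and passed it under the block (adjusted p = 0.0419). Mt2, a metallothionein, stood at 294, 839, 747 and 736 TPM in vehicle and 9613, 16520.0, 12850.0 and 13840.0 TPM in dexamethasone at 24 h, and 1021, 529, 537 and 556 TPM in vehicle and 6088, 6074, 7144 and 5098 TPM in dexamethasone at 72 h. Its fold was 20.2 at 24 h and 9.24 at 72 h and its change −0.81 ± 0.33 (adjusted p = 0.111), with an adjusted p of 0.00892 under the block.

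Among 15 genes of the receptor itself and of steroid handling, 3 were more positive (5.56% of all genes), Abcb1a and the receptor chaperones Hsp90aa1 and Fkbp4, and 3 more negative (5.77%), Nr3c1, Nr3c2 and H6pd. Hsp90aa1 and Fkbp4 were named after their values were seen. On TPM, of 14 tested, 2 were more negative and none more positive. Nr3c1, the glucocorticoid receptor, stood at 21.4, 31.1, 18 and 27.4 TPM in vehicle and 24.6, 22.4, 28.3 and 27.2 TPM in dexamethasone at 24 h, and 34.1, 48, 37.1 and 32.3 TPM in vehicle and 26.3, 23.2, 24.3 and 20.6 TPM in dexamethasone at 72 h. The dexamethasone libraries of both times overlapped, while every vehicle library was higher at 72 h than at 24 h, 1.55-fold on average (adjusted p = 0.0367). The receptor was 1.6-fold lower than vehicle at 72 h, a change of −0.44 ± 0.12 (adjusted p = 0.0243), with an adjusted p of 0.0597 under the block. H6pd, which supplies the cofactor of the enzyme that regenerates active glucocorticoid, was 2.95-fold and then 1.5-fold higher, a change of −0.63 ± 0.14 (adjusted p = 0.00512). That enzyme, Hsd11b1, was 1.83-fold lower at 24 h and 4.02-fold lower at 72 h, and its change of −0.86 (adjusted p = 0.081) passed the threshold without replicate 1 (adjusted p = 0.0127). Nr3c2, the mineralocorticoid receptor, was listed below 1 TPM in all 4 groups and changed by −1.08 (adjusted p = 0.0122). Abcb1a, a pump that exports steroids, changed by 2.31 (adjusted p = 0.0382) with no response called at either time, and had an adjusted p of 0.0622 on TPM.

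Many acute phase and complement genes rose at 24 h, and fewer were higher at 72 h. Of 19 tested, 12 were higher at 24 h (13.2% of all genes) and none lower, whereas at 72 h 5 were higher and 6 lower (15.2% each). The change was more negative in 10 (5.77% of all genes; 13 without replicate 1) and more positive in none, with a median of −1.59. Lbp, the lipopolysaccharide binding protein, stood at 0.618, 1.6, 0.272 and 0.542 TPM in vehicle and 84.5, 89.5, 47.4 and 111 TPM in dexamethasone at 24 h, and 12.2, 1.37, 1.47 and 0.855 TPM in vehicle and 73.5, 1.87, 15.6 and 2.91 TPM in dexamethasone at 72 h. At 24 h the groups were far apart. At 72 h replicates 1 and 3 with dexamethasone were high. Replicates 2 and 4 with dexamethasone lay above vehicle replicates 2 to 4 and below vehicle replicate 1 alone (12.2 TPM). Its fold was 109.7 at 24 h and 5.9 at 72 h, a change of −3.46 ± 0.87 (adjusted p = 0.0117). Orm1, an acute phase glycoprotein, stood at 1.3, 8.28, 6.64 and 3.88 TPM in vehicle and 266, 528, 448 and 381 TPM in dexamethasone at 24 h, and 23.9, 6.08, 4.58 and 3.02 TPM in vehicle and 215, 23.1, 104 and 26.5 TPM in dexamethasone at 72 h, a fold of 80.8 and then 9.84 and a change of −2.48 ± 0.66 (adjusted p = 0.0165). Orm2 and Orm3 are close copies and changed by −2.51 (adjusted p = 0.0093) and −2.54 (adjusted p = 0.00521). Reads of the 3 Orm genes may be split between copies, so each value is uncertain. Serpina3m, also one of several close copies, stood at 35.9, 37.8, 45.1 and 42.8 TPM in dexamethasone 24 h and 38.6, 4.86, 15.8 and 5.82 TPM in dexamethasone 72 h. Its change was −3.01 (adjusted p = 0.046), and 0.0955 was the adjusted p on TPM. Serpina3n and Hp, haptoglobin, had changes of −3.33 (adjusted p = 0.0715) and −2.71 (adjusted p = 0.184), which passed the threshold under the block (adjusted p = 0.04 and 0.014).

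Weakened responses of genes that fell numbered 8. Dynap, a regulator of Akt signalling, was 33.8-fold lower at 24 h and 4.94-fold lower at 72 h, a change of 1.59 ± 0.42 (adjusted p = 0.0158). Apol9a, an apolipoprotein L, was 7.39-fold and 2.46-fold lower, a change of 1.05 ± 0.27 (adjusted p = 0.0119).

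Sustained genes outside the receptor targets included a myogenic factor and a metalloproteinase inhibitor. Myf6, the myogenic factor MRF4, was 8.26-fold and 8.36-fold higher (16.9-fold at 72 h without replicate 1), a change of 0.52 ± 0.65 (adjusted p = 0.653). Plin4, a lipid droplet protein, stood at 6.18 ± 1.49 TPM with dexamethasone at 24 h and 8.5 ± 1.71 TPM at 72 h, a change of −0.10 ± 0.41 (adjusted p = 0.91). Amy1, an amylase, and Ifi207, an interferon-inducible gene, changed by −1.17 (adjusted p = 0.239) and −0.56 (adjusted p = 0.554). Timp3, an inhibitor of matrix metalloproteinases, was 13.9-fold and 18.3-fold lower (40.9-fold at 72 h without replicate 1), a change of −0.40 ± 0.41 (adjusted p = 0.569). Insc, a polarity protein, was 9.29-fold and 17.3-fold lower (42-fold at 72 h without replicate 1), and Camk1g, a calcium-dependent kinase, 7.23-fold and 10.3-fold. Dexamethasone 72 h replicate 1 was the highest of its group for Camk1g (2.4 TPM), and a fold without it is not given. Ch25h, which makes a hydroxycholesterol, and Cd7, a cell surface protein of lymphocytes, changed by 0.81 (adjusted p = 0.115) and 0.81 (adjusted p = 0.459). A missed threshold does not show that the 2 responses were equal.

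Of 22 tested ubiquitin ligases of atrophy and FoxO factors, 9 were higher at 24 h (13.2% of all genes) and 9 at 72 h (15.2%). A called change was found in 1, Fbxo32 (11.3% of all genes changed), and in 2 under the block. Fbxo32, atrogin-1, stood at 19.7, 29.8, 13.8 and 26.9 TPM in vehicle and 85, 105, 73.2 and 132 TPM in dexamethasone at 24 h, and 34, 30.2, 44.5 and 21.6 TPM in vehicle and 55.3, 67.7, 80.4 and 55.9 TPM in dexamethasone at 72 h. Dexamethasone lay above vehicle without overlap at both times, 4.38-fold and then 1.99-fold, a change of −0.72 ± 0.20 (adjusted p = 0.0225). Without replicate 1 of both 72 h groups its adjusted p was 0.0547. Trim63, MuRF1, stood at 25.2, 37.8, 29.7 and 36.8 TPM in vehicle and 51.9, 73.1, 59.4 and 81.9 TPM in dexamethasone at 24 h, and 44.9, 40.3, 56.1 and 42.1 TPM in vehicle and 54.8, 101, 94.2 and 82.2 TPM in dexamethasone at 72 h. It was 2.06-fold and 1.81-fold higher, and at 72 h the groups overlapped only by replicate 1 with dexamethasone. Its change was −0.05 ± 0.16 (adjusted p = 0.894). Znrf3, Foxo1 and Cblb had changes of −0.37 (adjusted p = 0.0698), −0.32 (adjusted p = 0.0768) and −0.30 (adjusted p = 0.067), and Foxo1 passed the threshold without replicate 1 of both 72 h groups (adjusted p = 0.0357).

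**Figure D5:**
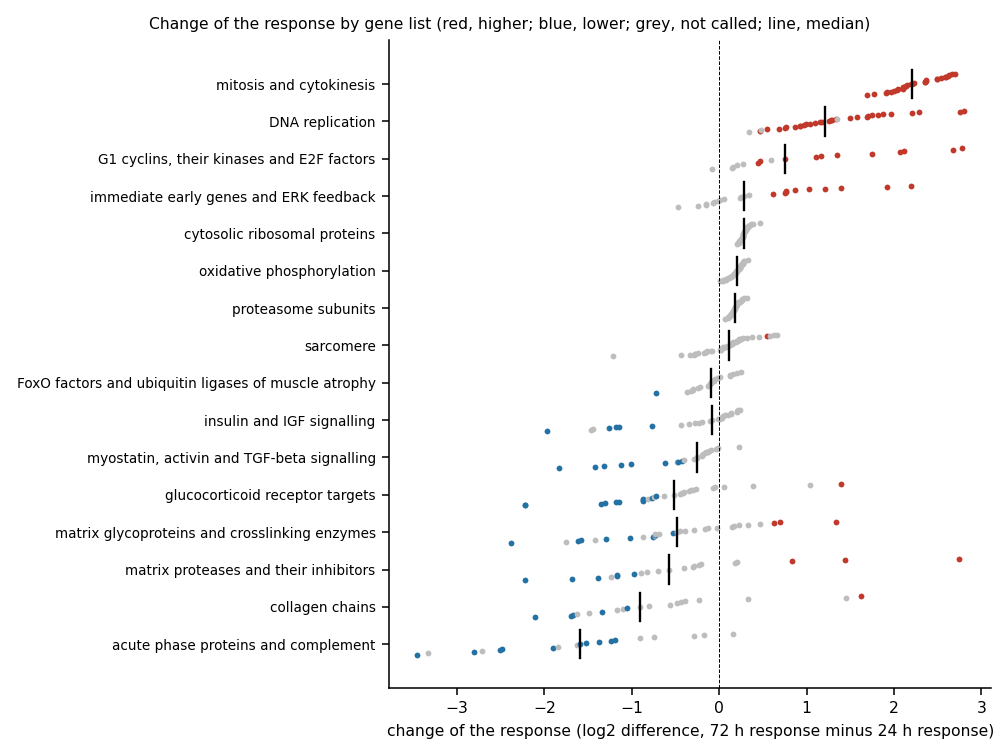
Change of the response (x axis, log2 difference, 72 h response minus 24 h response) of each tested member of 16 gene lists (rows), in red where more positive, blue where more negative and grey where not called, with the list's median as a black line. The mitosis genes all lie right of 0 with a median of 2.20, and the acute phase genes lie mostly left of 0 with a median of −1.59.

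Of 48 tested sarcomere genes 1 had a called change, where 11.3% of all genes did. It was Myl6b, a light chain (named after its values were seen), against 3 without replicate 1 of both 72 h groups, 5 under the block and 0 on TPM, and the median was 0.11 in the log2 table and 0.02 on TPM. At 24 h 9 were higher with dexamethasone (13.2% of all genes), and at 72 h 13 were higher and 3 lower (15.2% each). The members of largest change, Myl2, Myot, Mybpc1 and Tpm3, had changes of −1.21 (adjusted p = 0.0813), 0.66 (adjusted p = 0.466), 0.63 (adjusted p = 0.625) and 0.58 (adjusted p = 0.121). Under the block the adjusted p was 0.0213 for Myl2, 0.0417 for Mybpc1 and 0.0379 for Tpm3. The myotube markers Acta1, Myh3, Myh1, Mylpf, Ckm and Myog had 0 of 6 called changes by limma, with 1 lower at an unadjusted p under 0.05 (Ckm was called under the block, adjusted p = 0.0369). Their summed level was 16170 to 18350 TPM in dexamethasone 24 h and 15450 to 19180 TPM in dexamethasone 72 h, with 15770 to 21130 TPM and 13220 to 18530 TPM in vehicle. Myog, myogenin, changed by −0.07 ± 0.16 (adjusted p = 0.832). Among 19 myogenic regulators and fusion genes 2 were more negative (5.77% of all genes), among them the homeobox factor Six4, named after its values were seen. Without replicate 1 of both 72 h groups 1 was more negative and 1 more positive.

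Some lists had small changes of 1 sign and no calls by limma. All 33 proteasome subunits had changes above 0 (median 0.18), as did all 34 cytosolic ribosomal proteins (median 0.28) and all 38 oxidative phosphorylation genes (median 0.20), with 0 calls in each. Without replicate 1 of both 72 h groups 2 proteasome subunits and 1 oxidative phosphorylation gene were called more positive. At an unadjusted p under 0.05, 11 proteasome subunits, 7 ribosomal proteins and 8 oxidative phosphorylation genes were more positive and none more negative. In the vehicle arm 31 of the 34 ribosomal proteins and 21 of the 33 proteasome subunits were lower at 72 h than at 24 h at that unadjusted p. Under the block 8 of the ribosomal proteins were called more positive. At 24 h 6 proteasome subunits were lower with dexamethasone (12.2% of all genes) and none higher, and at 72 h 3 were higher (15.2%) and none lower, so the 24 h share lay near and the 72 h share below that of all genes. The 1520 genes above 100 TPM had a median change of 0.13, so that abundant genes as a whole lay on the same side.

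Markers of cells other than myotubes differed in direction. Of the 6 tested markers of unfused reserve or satellite-like cells 2 were more negative, Id3 and Pax7, and at an unadjusted p under 0.05 2 were more positive and 2 more negative. Id3, an inhibitor of myogenic factors, stood at 74.3, 64.3, 91.6 and 74.1 TPM in vehicle and 338, 298, 312 and 247 TPM in dexamethasone at 24 h, and 109, 101, 72.8 and 82.8 TPM in vehicle and 183, 37.6, 74.4 and 33.2 TPM in dexamethasone at 72 h. It was 3.93-fold higher at 24 h without overlap, and at 72 h replicate 1 was above the vehicle libraries and replicates 2 and 4 were below them, a change of −1.58 ± 0.34 (adjusted p = 0.00393). Pax7, the factor that marks satellite cells, changed by −0.94 ± 0.29 (adjusted p = 0.0383). The summed level of the 8 listed markers was 428.7 to 554.9 TPM in dexamethasone 24 h, 253.2 to 463.8 TPM in dexamethasone 72 h and 181.5 to 275.9 TPM over both vehicle groups. Calcr was at 0 in all 16 libraries and Pax3 below 1 TPM. Of fibroblast and tendon markers, Pdgfra alone of 5 was called, transient with a change of −1.50 ± 0.27 (adjusted p = 0.00103), and the sum of the 7 listed was 292.4 to 323.5 TPM in vehicle 24 h, 221.8 to 232.1 TPM in dexamethasone 24 h, 209.8 to 305.7 TPM in vehicle 72 h and 142.3 to 161.3 TPM in dexamethasone 72 h. Thy1, Tnmd and Mkx were below 1 TPM. Of 3 tested adipocyte markers Cebpa was called, with folds of 5.5 and 1.97 and a change of −1.04 ± 0.23 (adjusted p = 0.00469), while the adipocyte genes Adipoq and Plin1 were below 1 TPM in all 16 libraries. Osteoblast markers (2 tested), smooth muscle markers (5 tested) and macrophage markers (2 tested) had no called change by limma, with 1, 2 and 0 more negative at an unadjusted p under 0.05, and Bglap, Ibsp and Sp7, Myh11, and Ptprc, Adgre1 and Csf1r were below 1 TPM. In longer lists of such genes, 3 of 10 tested osteoblast genes were more positive (5.56% of all genes), Spp1, Dlx3 and Dmp1, and none more negative, or 2 without replicate 1 of both 72 h groups. Of 11 smooth muscle genes 1 was more negative (5.77% of all genes), Mylk, against 5 without replicate 1, 4 on TPM and 3 under the block. Of 12 fibroblast and tendon genes S100a4 was more positive and 3 more negative, Pdgfra, Pdgfrb and Pi16, or 5 without replicate 1. These genes other than Pdgfra were named after their values were seen. The part of these cells in the changes of matrix and cell cycle genes was not tested.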

How the data were processed

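Polyadenylated RNA of 24 C2C12 libraries was sequenced, and the submitters' processing notes name Salmon, DESeq, kallisto 0.51.1 and the build GRCm39, with no role for the tools. The authors deposited a table of log2 values (−2.33 to 20.06), normalised between libraries by a method not given in the sources used here and shrunken, so that its differences understate fold changes. The authors also deposited TPM, which sum to 1000000 per library. Neither table keeps depth, so no counting interval can be given.

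Genes were tested with limma 3.58.1 (R 4.3.3, limma-trend) on the log2 values for the 16257 genes whose value, as a power of 2, reached 10 in 4 or more libraries. All 24 libraries were fitted with 1 mean per group (18 residual degrees of freedom), and p-values were adjusted by Benjamini-Hochberg. The alternative on TPM used log2(TPM + 0.1) for 15250 genes at 0.5 TPM or more in at least 4 libraries. The scripts were tested on simulated data. Symbols were matched by identifier for 48291 of 48544 genes. Promoters are RefSeq windows of GRCm38.p6, an older build than the files'.

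Deviations of same-numbered dexamethasone and vehicle libraries correlated at 0.201 to 0.391 (24 h) and 0.117 to 0.338 (72 h), over 0.1 in all 8 pairs, so the replicate numbers were taken to pair libraries within a time. Within a time the vehicle library of the same number was the best match of each dexamethasone library, except for replicate 2 at 72 h (0.117). Across the times the correlations ran from −0.249 to 0.565. Those of replicate 1 were 0.385, 0.399, 0.15 and 0.565, with its own number the best match each time. Alternatives were other filters, scalings, weights, thresholds, replicate blocks and leaving out libraries.

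Genes named are, among those of the same class with and without replicate 1 of both 72 h groups and with a mean of at least 5 TPM in a treated or vehicle group, the 4 of largest change per direction in the transient, reversed, weakened and strengthened classes, the 6 of largest change in the delayed class, and the 6 of largest smaller response in the sustained class. Added were the 4 members of largest change in each list described and 11 fixed genes, Fkbp5, Tsc22d3, Klf15, Fbxo32, Trim63, Nr3c1, Igf1, Myog, Ccnd1, Mki67 and Col1a1. Some genes that meet this rule are not reported here. Genes named outside it are said to be so. The members and lists were chosen with earlier results of these data known. The fit with pairs as blocks within each time, with or without replicate 1 of both 72 h groups, was added after seeing the data. So were the fit on TPM without replicate 1 of both 72 h groups and the fit without replicate 1 of every group.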

Additional observations from a re-analysis of the deposited data

Results flagged for a closer look

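The response differed between 24 h and 72 h in 1842 genes by the limma test of the difference, as described above.

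Among 248 groups of 4 libraries (62 named genes in 4 groups), 28 held a library whose gap to the next exceeded Dixon's critical value for 4, and chance flags about 1 in 20 groups. Of the 28, 11 were in dexamethasone 72 h replicate 1 and 8 in vehicle 72 h replicate 1. Dexamethasone 72 h replicate 1 was the highest of its group for Omd (13.6 TPM), Fbln7 (16.6), Adamts12 (5.4), Islr (157.0), Igf1 (24.2), Nrep (45.2), Sfrp2 (70.1), Timp3 (49.4), Insc (2.92), Camk1g (2.4) and Col1a1 (109 TPM), all genes that were lower with dexamethasone. Vehicle 72 h replicate 1 was the highest for Serpinb2 (3.48 TPM), Serpina3m (4.63), Orm1 (23.9), Slco4a1 (0.319), Ifi207 (3.17), Mt2 (1020.0), Amy1 (4.6) and Tsc22d3 (108 TPM), all genes that were higher with dexamethasone.

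The other 9 were spread over 7 libraries. In vehicle 24 h, replicate 3 was highest for Saa3 (0.481 TPM), replicate 2 highest for Col27a1 (4.46 TPM), and replicate 1 highest for Serpina3m (0.012 TPM) and lowest for Timp3 (90.6 TPM). In dexamethasone 24 h, replicate 1 was lowest for Chrdl1 (38.4 TPM) and replicate 3 highest for Igf1 (24.2 TPM). In vehicle 72 h, replicate 2 was highest for Gdpd2 (7.53 TPM), and replicate 3 was highest for Slpi (2.69 TPM) and lowest for Col1a1 (113 TPM).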

How the results depend on the processing

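For the 235 results on named genes, of 6565 values under the alternatives 6054 stayed on their side of the threshold, 306 lost it and 205 passed it. No value called in either fit changed sign, and 5 that were called in neither did. Counts of genes moved more. The median of each list kept its sign on TPM except for 3 lists near 0.

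With the replicate number as a block over all groups, 1066 genes were more positive and 1167 more negative. With blocks of same-numbered libraries within each time there were 742 transient, 259 reversed, 131 weakened and 83 strengthened genes, and without replicate 1 of both 72 h groups as well there were 1473 more positive, 1688 more negative, 776 transient, 377 reversed and 300 strengthened genes. Of the 235 results on named genes, 206 kept their call under blocks within each time, 21 passed the threshold and 8 lost it. At 24 h the adjusted p under that block was 0.053 for Postn, 0.0537 for Thbs2, 0.0544 for Col27a1 and 0.0801 for Dhrs9, and at 72 h 0.086 for Thbs2, all called without it. The reverse held at 72 h for Grem1 (0.0419), Lbp (0.00337), Gpx3 (0.00477) and Rbl2 (0.0148), and at 24 h for Pclaf (0.0352), Dusp6 (0.0454) and Etv5 (0.0362).

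Without replicate 1 of both 72 h groups 1416 genes were more negative, 196 reversed and 208 strengthened, and 206 were strengthened without replicate 1 of every group. On log2(TPM + 0.1) 599 genes were more positive and 51 weakened, and without replicate 1 of both 72 h groups as well there were 1410 more negative, 40 weakened, 151 strengthened and 1059 sustained. With no filter on low values 70 genes were reversed, 48 weakened and 19 strengthened, and with 16 libraries in the fit 22 were strengthened. With array weights there were 1715 more positive, 1956 more negative, 820 transient, 1901 delayed, 347 reversed, 131 weakened and 305 strengthened genes. At an adjusted p under 0.01 these were 453, 365, 210, 504, 34, 26 and 5, with 868 sustained. Lower counts follow by construction, except for the transient, delayed and sustained classes, which also require a test that is not called. For the other settings the cause was not tested.

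Leaving out 1 library gave 640 to 1177 more positive genes, 573 to 1509 more negative, 308 to 630 transient, 669 to 1464 delayed, 72 to 226 reversed, 52 to 80 weakened, 22 to 206 strengthened and 1260 to 1723 sustained. More negative genes numbered 1509 without dexamethasone 72 h replicate 1, 601 without its replicate 2 and 573 without its replicate 4, and delayed genes 669 without its replicate 2. Transient genes fell to 308 without dexamethasone 24 h replicate 4 and 318 without vehicle 24 h replicate 3. Reversed genes numbered 226 without dexamethasone 72 h replicate 1, 79 without its replicate 4, 72 without dexamethasone 24 h replicate 4 and 79 without vehicle 24 h replicate 3. Strengthened genes numbered 206 without dexamethasone 72 h replicate 1, 24 without its replicate 2 and 22 without its replicate 4. They numbered 31, 26 and 22 without dexamethasone 24 h replicates 1, 2 and 4, 33, 24 and 30 without vehicle 24 h replicates 1, 3 and 4, and 30 without vehicle 72 h replicate 2. Depth is unknown, so what it limits could not be given.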

Other observations

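Called changes in other gene lists are given beside the shares of all genes, 5.56% more positive and 5.77% more negative (6.46% and 8.71% without replicate 1 of both 72 h groups). Of 21 integrated stress response and amino acid synthesis genes, 4 were more positive (2 on TPM and 7 under the block of same-numbered libraries) and 1 more negative. The 4 were Slc7a11, Psat1, Phgdh and Shmt2, the last 2 named after their values were seen. Slc7a11, the cystine transporter, changed by 2.10 ± 0.38 (adjusted p = 0.00133), and Psat1, an enzyme of serine synthesis, was 1.89-fold higher at 72 h and changed by 0.67 ± 0.16 (adjusted p = 0.00898). Vldlr, a lipoprotein receptor, was transient, 3.3-fold higher at 24 h and 1.12-fold lower at 72 h, a change of −1.28 (adjusted p = 0.0382) (adjusted p = 0.0624 on TPM). Of 17 heat shock and chaperone genes 4 were more positive (2 without replicate 1 of both 72 h groups, 1 on TPM), the chaperones Hspa1b, Hspa8 and Dnajb1 and the mitochondrial chaperonin Hspd1, which changed by 0.45 ± 0.08 (adjusted p = 0.00144). Hspa8 was named after its values were seen. Of 22 Nrf2 and xenobiotic genes 2 were more positive, Gclm and Abcc4, named after their values were seen, and 1 more negative, Gpx3. These shares lay near those of all genes. Under the block 7 were more positive, and without replicate 1 of both 72 h groups 4 were more positive and 4 more negative. Gpx3, a secreted glutathione peroxidase, was 10.9-fold higher at 24 h and 1.79-fold at 72 h, a change of −1.89 ± 0.30 (adjusted p = 0.000446).

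Of 24 chemokines, cytokines and inflammatory genes 3 were more positive (5.56% of all genes), Ptgs2, Ptgs1 and Csf1, and 2 more negative (5.77%), Cxcl12 and Il6ra. Without replicate 1 of both 72 h groups 7 were more negative (8.71% of all genes). Ptgs1 and Csf1 were named after their values were seen. Ptgs2, the inducible cyclooxygenase, was reversed, 1.54-fold lower at 24 h and 2.18-fold higher at 72 h, a change of 1.30 ± 0.21 (adjusted p = 0.000595). Cxcl12, a chemokine, was 2.24-fold and 6.55-fold lower, 11.3-fold at 72 h without replicate 1, a change of −1.03 ± 0.29 (adjusted p = 0.0244). Il6ra, the interleukin 6 receptor, was 4.92-fold and 1.76-fold higher, a change of −0.99 ± 0.21 (adjusted p = 0.00434). Il1rn, the interleukin 1 receptor antagonist, had a change of −2.09 (adjusted p = 0.21) that passed the threshold under the block (adjusted p = 0.0145). Of 33 autophagy and lysosome genes 3 were more negative, Atg12, Lamp2 and Gabarapl1, with −0.59 (adjusted p = 0.00114), −0.51 (adjusted p = 0.00617) and −0.38 (adjusted p = 0.027). That share lay near that of all genes, and under the block 5 were more negative. Of 18 neuromuscular junction genes Agrn, agrin, and Lrp4, its receptor, were more negative, with −0.58 (adjusted p = 0.0075) and −0.53 (adjusted p = 0.0349), and Etv5 more positive with 0.75 (adjusted p = 0.00321).

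In both 24 h groups the order of replicates 1 and 3 against replicates 2 and 4 also differed between changed genes and all tested genes. In vehicle 24 h, replicates 1 and 3 both lay below replicates 2 and 4 in 66.2% of the 938 genes whose response became more negative, compared with 36.4% of all tested genes. They lay above them in 36.8% of the 904 genes whose response became more positive, compared with 12.4%. In dexamethasone 72 h both lay above them in 74.6% of the 938, compared with 23.6%, and below them in 55.4% of the 904, compared with 20.4%. In dexamethasone 24 h both lay below them in 39.7% of the 938 (24.4% of all) and above them in 23.8% of the 904 (12.7%). In vehicle 72 h both lay below them in 28.6% of the 938 and 34.8% of the 904, compared with 26.7% of all. The labels give no batch for these libraries.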
